A study of Mus musculus with 3 samples.

Results

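The 6 enzymes of the urea cycle and its entry point are encoded by Cps1, Ass1, Asl, Arg1, Otc and Nags, and the binding of RXRα and RARα at these genes was measured in mouse liver. The genes were chosen by their function, and because Cps1 was known to carry a run of adjoining RARα peaks, from the 22367 protein-coding genes of GENCODE M1 on NCBI37/mm9. All 6 genes were found. The RARα lengths, shares and scores given for Cps1 therefore describe why it was chosen and carry no test. The libraries came from livers of male wild type C57BL/6 mice of 3 months, with 1 library of chromatin precipitated with an RXRα antibody, 1 of input chromatin and 1 of chromatin precipitated with the RARα antibody. No genotype, treatment or time differed between them. Nothing says how many mice went into each library, and with 1 library per antibody there is no replicate check of any value. Intervals are 95% exact binomial intervals that cover counting error only.

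The urea cycle converts ammonia, which is toxic, into urea, and it runs almost entirely in hepatocytes around the portal vein. Nags makes N-acetylglutamate, the activator that Cps1 needs, and Cps1 and Otc work in the mitochondrial matrix to form carbamoyl phosphate and citrulline. Ass1, Asl and Arg1 work in the cytosol, where they form argininosuccinate, split it into arginine and fumarate, and release urea. RARα is a nuclear receptor for retinoic acid, and RXRα is the partner with which it and many other receptors bind DNA. Whole liver holds several cell types, so weak binding in many cells and strong binding in few cells cannot be told apart here.

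For RXRα and input, a signal in bins of 32 bp was deposited, and 1 read covers 5 bins, which gives 9.99994 M RXRα and 9.99929 M input reads. These totals are nearly equal, and the depth as sequenced cannot be read from the signal. The paper states a larger number of uniquely mapped RXRα reads, so reads here are units of the deposited signal. RXRα over input is the ratio of reads after both libraries were scaled to the same total. An RXRα region is a stretch of bins with at least 20 times the input, where the input is not set below its genome mean of 0.603 per bin. For RARα, a list of 143280 peaks with a score was deposited, and peaks whose start lay 10 bp or less after the previous end were joined into a domain. A filtered RARα peak has a score greater than 20 and its summit within 10 kb of the transcriptional start site (TSS). The score has no stated unit and ran from 5 to 382 over the list, with a median of 12.

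Every urea cycle gene, 6 of 6, had a filtered RARα peak, compared to 52.2% of all protein-coding genes. All 6 also had an RXRα region within 10 kb, compared to 39.8%. In 5 of the 6 genes, binding of both receptors co-localized, which means that a filtered RARα peak and a region of RXRα shared 25% or more of the shorter one, compared to 23.5% of all genes, and the exception was Otc. The strongest RARα peak of Cps1, Ass1, Arg1, Otc and Nags had its summit within 138 bp of the TSS. Its score was 155 at Cps1, 145 at Ass1, 111 at Arg1, 70 at Nags and 23 at Otc. RXRα took another arrangement, with its highest ratio away from the TSS in every one of the 6 genes.

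**Figure D1:**
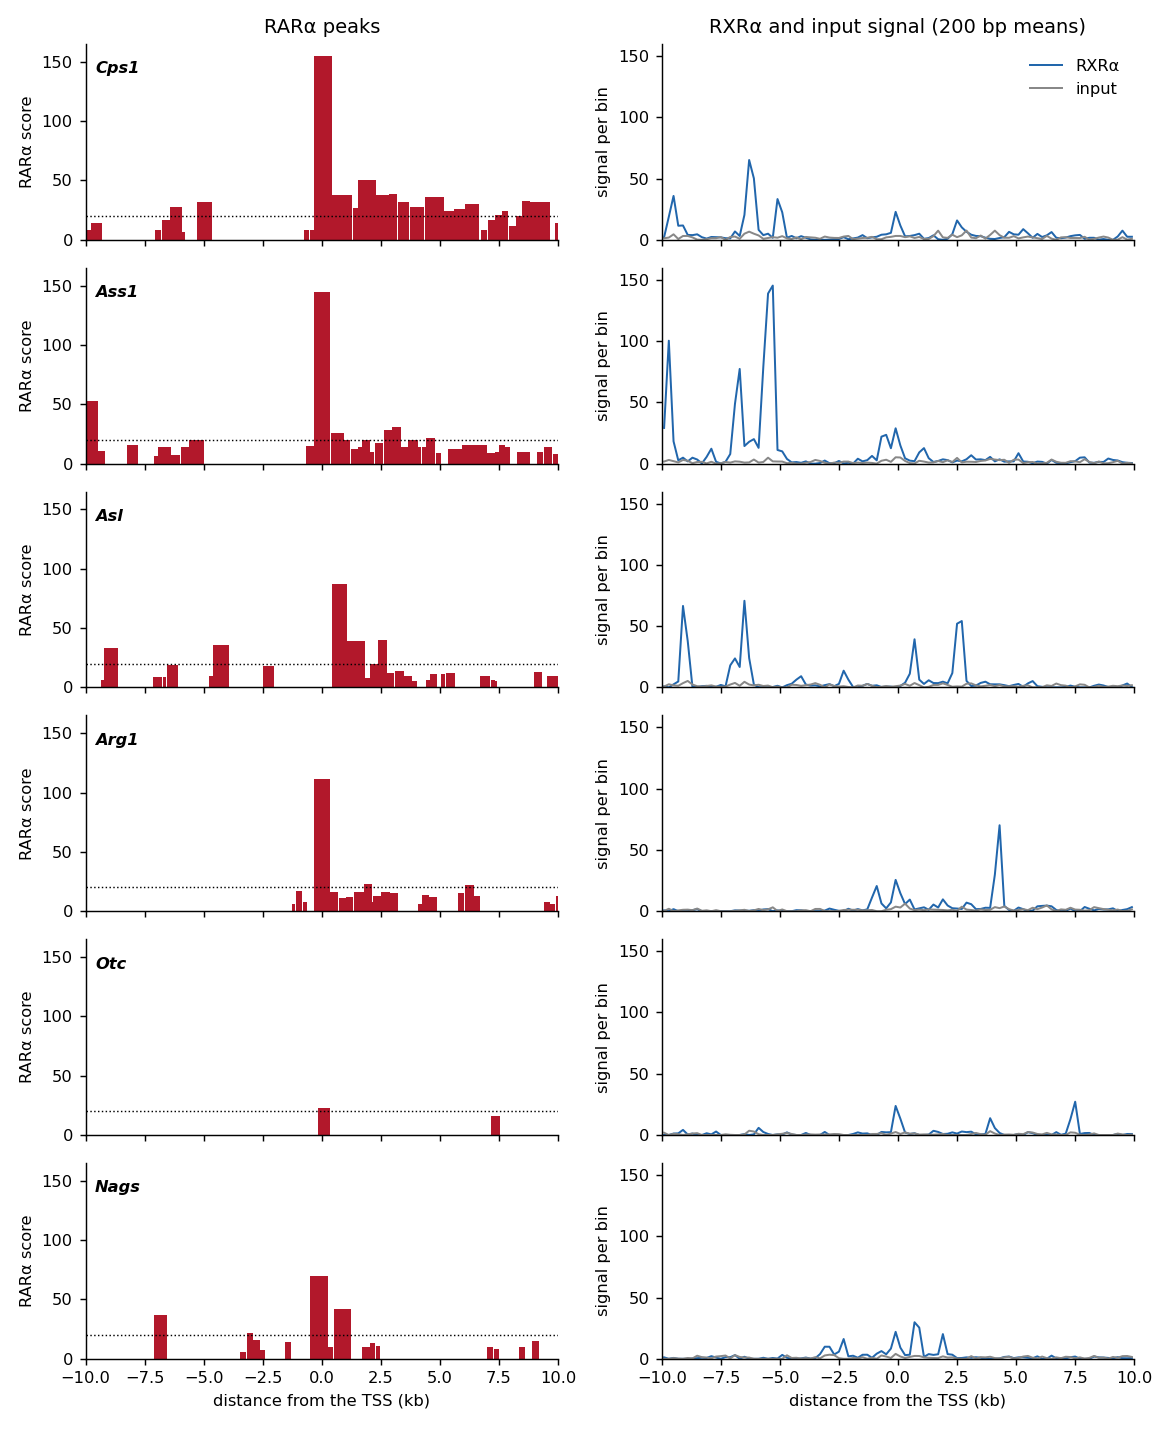
RARα peak scores (left, each bar spans 1 peak, the dotted line marks a score of 20) and mean RXRα and input signal per bin in steps of 200 bp (right) against the distance from the TSS in kb, in the direction of transcription, for the 6 urea cycle genes. The tallest RARα bar lies at or just inside the TSS in each gene, from a score of 155 at Cps1 to 23 at Otc, and the highest RXRα signal lies kilobases away, except at Nags, where it lies near 700 bp downstream of the TSS.

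Direct repeats of the 6-base element that nuclear receptors recognise were searched in NCBI37/mm9 within 100 bp of the RARα summits and of the highest RXRα bins, on both strands. The form AGGTCA is the usual one. Allowed beside it were the variant AGTTCA, then the variant GGGTCA, and finally the variant GGTTCA. The copies could lie 0 to 8 bases apart, overlaps between different repeats were kept, and DR followed by a number gives the spacing. Of the 25 windows at RXRα regions in or within 15 kb of the urea cycle genes, 5 held such a repeat, 20%. This compares to 4.58% of the windows at all 42117 RXRα regions. A window can reach past the edge of its region. Of the 190 windows at RARα peaks of Cps1 with a score above 20, 2 held one, 1.05%. It was 2 of 69 windows at Ass1, 1 of 12 at Asl and 5 of 280, 1.79%, over all 6 genes, compared to 1.08% of the 32946 such windows of the genome. The repeats at RXRα bins are shown as the letters that these windows at the urea cycle genes share with known receptor response elements. The copies are in capitals, with the spacer and 4 flanking bases on each side in lower case, 5′ to 3′ on the strand that holds the repeat.
Arg1 DR5: cttcGGGTCAaactcGGGTCAtcgg
Asl DR6: tgctGGGTCAtgcggaGGGTCAggaa
Otc DR1: tagaAGTTCAgAGGTCAacct
Ass1 DR0: caagAGTTCAAGTTCAgtga
Ass1 DR2: tccaAGGTCAggAGGTCAtggc

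The Arg1 repeat (chr10:24648206-24648222, minus strand) had the spacing of 5 bases known from retinoic acid response elements, and its centre lay 5 bp from the highest bin of the RXRα region at -933 bp from the TSS. A repeat of this spacing was present in 0.439% of the windows at all RXRα regions. The Asl repeat (chr5:130498434-130498451, minus strand) lay in the exonic region with the highest RXRα ratio, 13 bp from the RARα summit there. The Otc repeat (chrX:9816867-9816879, minus strand) lay beside the RXRα region far upstream of the gene, with 88 bp to its highest bin. The DR0 of Ass1 (chr2:31326793-31326804, plus strand) was intronic and lay past the edge of its RXRα region, 61 bp from the highest bin. The DR2 of Ass1 (chr2:31385910-31385923, plus strand) lay outside the gene, past its end. The RXRα region there had a ratio of 78.0, from an RXRα signal of 47 over an input of 0, and overlapped 0 RARα peaks. No such repeat was found in these windows at the RXRα regions of Cps1 and Nags.

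Cps1, which encodes carbamoyl phosphate synthetase 1 and makes one of the most abundant proteins of liver mitochondria, carried RARα peaks from end to end. Its gene body (ENSMUSG00000025991.8, chromosome 1, 67169600 to 67277833 on the plus strand) is 108.2 kb long, and 206 RARα peaks covered 97.5% of it. By comparison, the median protein-coding gene had 1.84% of its body under RARα peaks, and 168 genes, 0.751%, reached a share of 90%. The longest joined domain on Cps1 ran over 67270 bp and 120 peaks, from 67213821 to 67281090, and this was the longest of the 92167 domains in the genome. When peaks with a score of 20 or less were left out, the longest domain on Cps1 was 19231 bp, at rank 3. The next domains in length on protein-coding genes were those of Acsl1, which activates long fatty acids (38391 bp), of Upp2, a uridine phosphorylase (27560 bp), and of Lpin1, a phosphatidate phosphatase (27151 bp). The 9 domains on the Cps1 body touched 0 other protein-coding genes, and the same held for the domains on the other 5 bodies.

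The run on Cps1 followed the limits of the gene. When gaps of up to 1000 bp were bridged, a single run of 112801 bp with 215 peaks began 749 bp upstream of the TSS and ended 3818 bp past the annotated gene end. After it no RARα peak was listed over the next 720929 bp, while upstream the nearest peak lay 3880 bp away. The 206 peaks that overlap the body had a median score of 36, compared to 12 over the whole list, and 90.3% of them scored above 20, compared to 23.0%. Only the peak at the TSS stood out in height, with 155 against 91 for the next one. The highest false discovery rate among the Cps1 peaks was 0.01%.

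Within the body the coverage varied little between exons and introns or along the gene. RARα peaks covered 98.7% of the exonic and 97.4% of the intronic bases. Over 10 equal segments of the body from the start to the end, the covered share ran from 95.8 to 98.6%. The mean score over those segments lay between 31.9 in the second and 50.1 in the eighth, so the scores did not fall towards the end of the gene. The uncovered bases were split over 205 stretches with a median of 9 bp, which was also the median in Ass1, Asl and Arg1, and the longest was 220 bp. The 10 kb before the TSS and the 10 kb past the gene end had 33.3% and 37.2% of their bases under peaks.

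**Figure D2:**
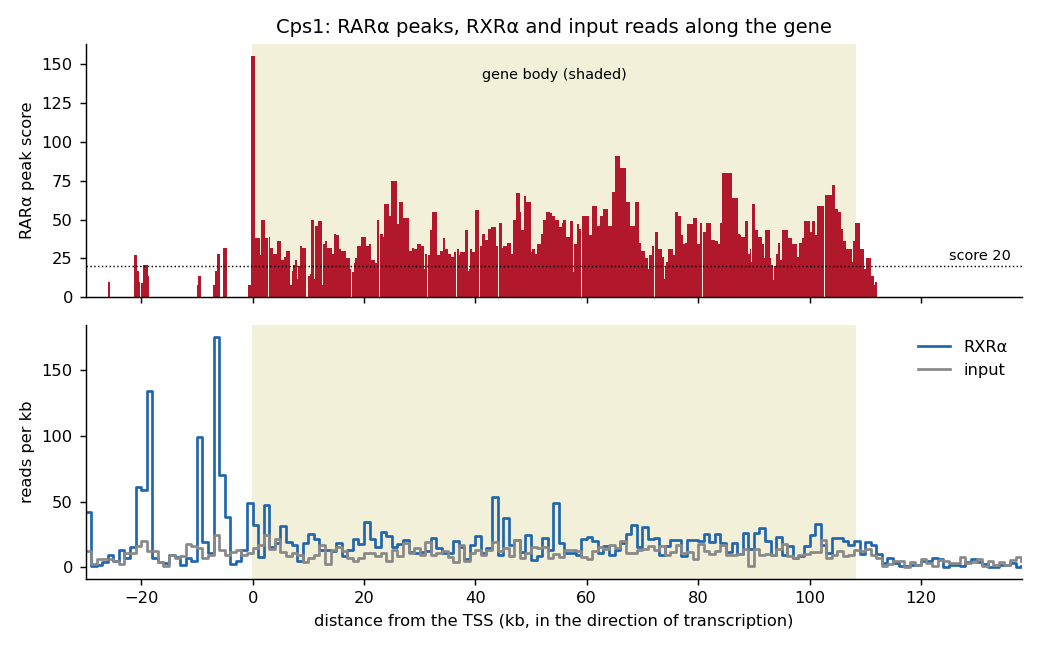
RARα peak scores (top) and RXRα and input reads per kb (bottom) along Cps1, against the distance from the TSS in kb in the direction of transcription, with the gene body of 108.2 kb shaded. RARα peaks fill the body and stop 3818 bp past its end, whereas the RXRα reads are highest upstream of the TSS.

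RXRα, which played no part in the choice of the run, was higher along it than beyond its end and lower than in the 10 kb upstream. No RXRα region lay in the Cps1 body, against 2 upstream of it. In the body the highest bin held 20 times the input before scaling and 19.9987 after it, so that the count was 1 in place of 0 without the scaling. RXRα over input was 1.58 (1.47 to 1.69) over the body, from 2008 RXRα and 1273 input reads, where the median body of all genes had 0.99994. Along the 10 segments of the body it stayed between 1.42 and 1.78, and the intervals of all segments overlapped. In the 10 kb upstream of the TSS it was 3.95 (3.23 to 4.86), from 482 and 122 reads, which lies above the interval of the whole body. The 10 kb past the gene end, which include the last 3818 bp of the run, had 1.32 (0.948 to 1.85). Over the 25 kb past the end of the run, a length set after the values were seen, RXRα had 3.20 reads per kb, compared to 18.7 along the run. The ratio there was 0.860 (0.630 to 1.17), compared to 1.59 (1.48 to 1.70) along the run, so the intervals did not overlap. Input was 3.72 reads per kb past the run and 11.8 along it.

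The upstream RXRα regions of Cps1 were narrow and each lay under a RARα peak. The one with the higher ratio, from 67164513 to 67164672, had its highest bin at -5039 bp from the TSS. This bin had a ratio of 39.997, from an RXRα signal of 40 over an input of 1, and lay under a RARα peak with a score of 32. The other one, from 67163393 to 67163488, had its highest bin at -6127 bp with a ratio of 27.5, under a RARα peak with a score of 28. The RXRα signal of that bin was larger, 55 over an input of 2. The mean RXRα enrichment over these RARα peaks was 8.79 and 8.26. By contrast, the peak at the Cps1 TSS, which scored 155 and lay over untranslated sequence, had an enrichment of 3.75 and was not co-localized. Over the 185 peaks in the body with a score above 20 the enrichment ranged from 0 to 8.46 with a median of 1.45, and 11 of them, 5.95%, reached 5. Over all 32946 peaks of the genome with such a score the median was 4.09 and 42.1% reached 5.

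Ass1, which joins citrulline and aspartate into argininosuccinate, had the second of the long domains among these genes. Its body (ENSMUSG00000076441.4, chromosome 2, 31325727 to 31376192 on the plus strand) is 50.5 kb long, and 123 RARα peaks covered 92.9% of it, with a median score of 22. The longest domain measured 14661 bp over 32 peaks and reached past the end of the gene, which put Ass1 at rank 8 of all genes. A joined domain of at least 10 kb was present on 33 genes, 0.148%, and Cps1 and Ass1 were among them. Of 4841 genes of 50 kb or more, 4 had at least 90% of their body under RARα peaks, namely Lpin1, Cps1, Acsl1 and Ass1, which is 0.0826%. The cover of Ass1 had larger gaps than that of Cps1, up to 1140 bp.

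Ass1 had the highest RXRα over input in the window of 10 kb, but not in narrower ones. Within 10 kb of the TSS, RXRα over input was 6.73 (5.77 to 7.87), the highest of the 6 genes, and its interval lay above those of the other 5. Within 5 kb it was 2.74 (2.18 to 3.46), below Arg1, Nags, Asl and Otc. In the 10 kb upstream it was 12.6 (10.1 to 15.9), from 1098 RXRα and 87 input reads. The strongest RXRα region, from 31319873 to 31320544, had a ratio of 131.1 in a bin at -5742 bp from the TSS that held no input read. The RARα peaks under it scored at most 20 and so did not pass the filter. Further upstream, the region from 31315873 to 31316096, in the neighbouring gene Hmcn2, had a ratio of 62.0 and co-localized with a RARα peak that scored 53. At the TSS itself a bin with a ratio of 27.998, at -206 bp, lay under the RARα peak with a score of 145. Within the Ass1 body RXRα over input was 1.79 (1.59 to 2.01), with an interval that overlapped that of Cps1.

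Asl, the enzyme that splits argininosuccinate, had 65.9% of its body under RARα peaks (ENSMUSG00000025533.9, chromosome 5, 130487128 to 130501002 on the minus strand). The highest RARα score there was 87, for a peak (130499931 to 130500550) that lay 867 bp inside the annotated gene start. The starts of 6 of the 9 annotated Asl transcripts fell under this peak. It co-localized with an RXRα region with a ratio of 27.0. The highest RXRα ratio of all 6 genes, 189.2, was in an Asl exon, in the region from 130498273 to 130498528, where RXRα had 114 and the input 0 in the top bin, and which holds the DR6 repeat. The RARα peak over it scored 40 and had an RXRα enrichment of 81.4. RXRα over input within 10 kb was 4.14 (3.52 to 4.89), which includes 2 regions in the neighbouring gene Crcp.

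Arg1, the liver arginase that releases urea, had 53.6% of its body under RARα peaks (ENSMUSG00000019987.8, chromosome 10, 24635014 to 24647276 on the minus strand), and its longest domain measured 2480 bp. The RARα peak over the TSS, from 24646921 to 24647600, scored 111 and co-localized with a single RXRα bin with a ratio of 24.998. Its highest RXRα ratio, 98.994, was in an intron 4251 bp downstream of the TSS, where the RARα peaks scored at most 14. Another RXRα region, from 24648129 to 24648288 with a ratio of 44.8, holds the DR5 repeat. It lay at -933 bp from the TSS under a RARα peak with a score of 17. The highest bin of that region had an RXRα signal of 27 and an input of 0, so the genome mean was used as input. RXRα over input within 10 kb of the TSS was 2.71 (2.25 to 3.28).

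Otc, which makes citrulline from ornithine and carbamoyl phosphate, differed from the other long genes of the cycle in that it had no long domain. Its body (ENSMUSG00000031173.7, chromosome X, 9829431 to 9898150 on the plus strand) is 68.7 kb long, yet 2 RARα peaks covered 1.08% of it. One, with a score of 23, lay over the TSS with an RXRα enrichment of 8.26 that did not reach a region. The other, with a score of 16, lay over the only RXRα region in the gene, which was intronic, 7450 bp downstream of the TSS, with a ratio of 21.5. Beyond the window, at -12646 bp from the TSS, an RXRα region with a ratio of 68.0 lay under RARα peaks that scored at most 8. The highest bin of that region had an RXRα signal of 41 and an input of 0, so the genome mean was used as input. RXRα over input was 2.50 (1.66 to 3.84) and 3.43 (2.08 to 5.87) in the first and second of 10 equal segments of the body and between 0.357 and 0.900 in the other 8.

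The X chromosome as a whole was low in both receptors. It held 10.3 RARα peaks per Mb, whereas the autosomes held 43.8 to 84.1, and 3.96 RXRα regions per Mb, whereas the autosomes held 13.1 to 24.7. A filtered RARα peak was present for 21.7% of its genes, compared to 41.6 to 62.0% on the autosomes. The mean input signal per bin was 0.328 on X and 0.576 on the median autosome, in these male mice. The part of the chromosome in the values of Otc was not tested.

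Nags (ENSMUSG00000048217.5, chromosome 11, 102006827 to 102010791 on the plus strand), the shortest of the genes with a body of 3.965 kb, had 48.4% of it under RARα peaks and no domain longer than 981 bp. The peak that scored 70, the highest there, had its summit in an exon 8 bp from the TSS with an RXRα enrichment of 5.89. The next one, which was intronic (102007361 to 102008080, score 42), had an enrichment of 9.09 and co-localized with an RXRα region with a ratio of 20.3. An RXRα region with a higher ratio, 33.2, lay at -2330 bp from the TSS under a RARα peak that scored 7. Its highest bin had an RXRα signal of 20 and an input of 0, so the genome mean was used as input. The highest bin of the region with a ratio of 20.3 had the larger RXRα signal, 61, over an input of 3. RXRα over input within 10 kb was 2.62 (2.13 to 3.23).

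By RXRα over input within 10 kb of the TSS, the 6 genes followed the order Ass1, Asl, Otc, Arg1, Cps1 and Nags. The median over all protein-coding genes was 1.09, and over the 11676 genes with a filtered RARα peak it was 1.58. The interval of each of the 6 genes lay above both medians in this window. Such values were not particular to the urea cycle genes. Their median was 2.77, compared to 3.13 for the 16 related genes and 2.73 for the 10 hepatocyte genes described below. Within 5 kb the value of Cps1 was 1.56 (1.26 to 1.93), and the order became Arg1, Nags, Asl, Otc, Ass1 and Cps1. Within 1 kb it was Nags, Ass1, Arg1, Asl, Otc and Cps1. Within 10 kb, Asl (3.52 to 4.89) lay above the intervals of Cps1, Arg1 and Nags but overlapped that of Otc. The values of Otc, Arg1, Cps1 and Nags, from 2.84 to 2.62, had overlapping intervals.

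**Figure D3:**
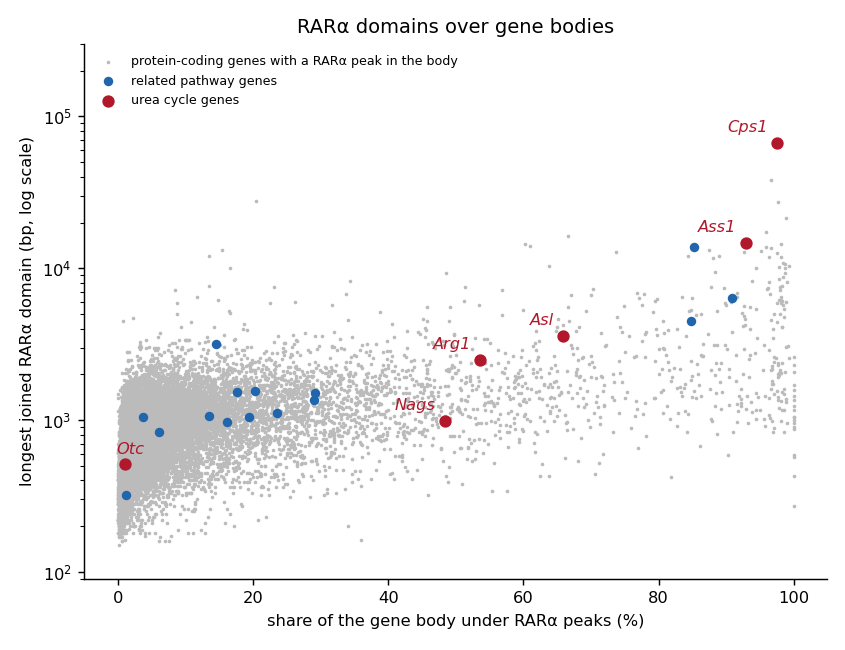
Longest joined RARα domain in bp (log scale) against the share of the gene body under RARα peaks in percent, with 1 point per protein-coding gene that has a RARα peak in its body, the related pathway genes in blue and the urea cycle genes in red. Cps1 lies above every other gene at 67270 bp, Ass1 is at 92.9% and 14661 bp, and Otc is at 1.08% and 510 bp.

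In the bodies of Asl, Arg1, Otc and Nags RXRα over input was higher under the RARα peaks than beside them. Inside the RARα peaks of Asl, RXRα over input was 3.75 (2.949 to 4.803), compared to 1.09 (0.661 to 1.81) in the rest of its body. The inside values were 3.55 (2.74 to 4.66) for Arg1, 7.17 (4.36 to 12.5) for Nags and 9.14 (4.19 to 23.6) for Otc. Outside the peaks these genes had 1.21, 1.64 and 0.814. The quotient of inside over outside, with a conditional exact interval, was 3.42 (1.95 to 6.01) for Asl, 2.94 (1.86 to 4.64) for Arg1, 11.2 (4.98 to 29.6) for Otc and 4.33 (1.58 to 11.6) for Nags. For Cps1 it was 0.993 (0.506 to 1.90), but the 2.592 kb outside its peaks held only 27 RXRα and 17 input reads. The gaps between the Cps1 peaks, with their median of 9 bp, are shorter than a bin of 32 bp, so inside and outside can hardly be separated there. For Ass1 it was 0.557 (0.314 to 0.950), with 62 RXRα and 20 input reads outside. In its body RXRα had 15.8 reads per kb inside the peaks and 18.4 outside, and input had 9.14 inside and 5.90 outside. The median gap between the Ass1 peaks is also 9 bp, shorter than a bin.

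**Figure D4:**
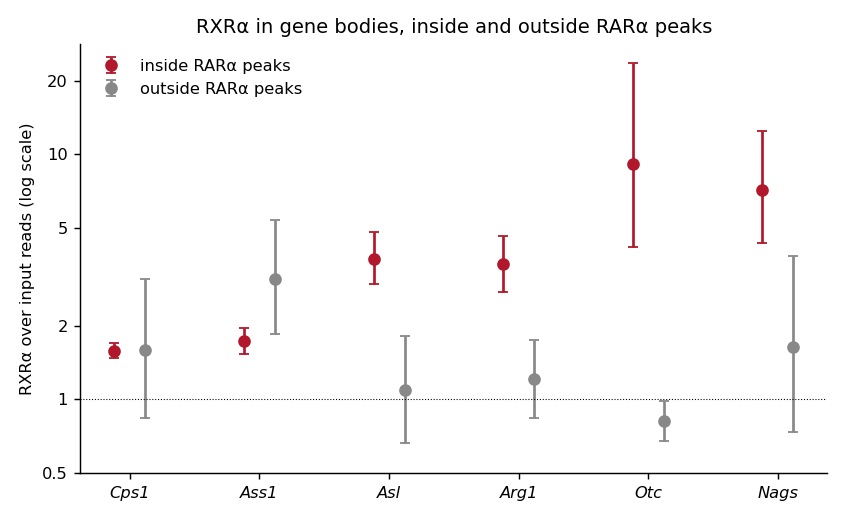
RXRα over input reads (log scale) inside and outside the RARα peaks of each urea cycle gene body, where the bars are 95% exact binomial intervals and the dotted line marks 1. The intervals inside and outside separate for Asl, Arg1, Otc and Nags, and those of Cps1 and Ass1 overlap, where the outside of Cps1 is mostly gaps shorter than 1 bin.

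Input coverage moved with the RARα cover. The Cps1 body held 11.8 input reads per kb, which is 3.12 times the genome mean of 3.77, and 99.01% of all genes held less. Arg1 held 10.8, Ass1 8.92, Asl 8.67, Nags 7.11 and Otc 3.70 input reads per kb. Otc lies on X, where the mean input was lower. Relative to the mean input of its own chromosome, Cps1 held 2.97 times, Arg1 2.91, Asl 2.46, Nags 1.91, Ass1 1.81 and Otc 1.81. By this measure Otc, with 1.08% of its body under RARα peaks, was close to Ass1, with 92.9%. Among the 16526 genes of 5 kb or more, the median input was 3.69 reads per kb where RARα peaks covered less than 10% of the body and 11 where they covered 90% or more, in 43 genes. Across these genes the RARα share and the input had a Spearman correlation of 0.662, and the share had one of 0.778 with RXRα reads per kb and of 0.667 with RXRα over input, as a description, since genes share the libraries and are not independent replicates. The median RXRα over input was 0.889 below a share of 10%, 2.19 from 10 to 50%, 3.45 from 50 to 90% and 2.73 in the 43 genes. Cps1 and Ass1, with 1.58 and 1.79, lay between the first and the second of these classes. An input for the RARα library was not used here, and the part of input coverage in the RARα domains was not tested.

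**Figure D5:**
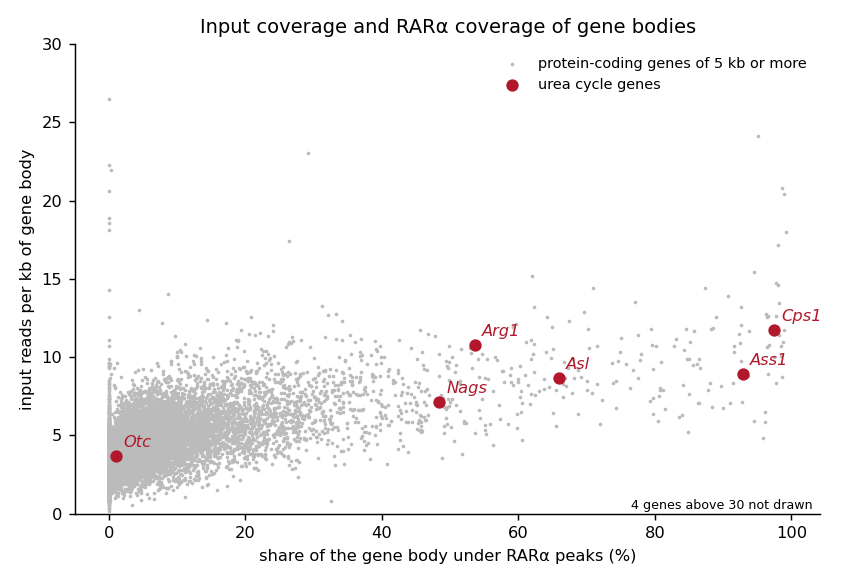
Input reads per kb of gene body against the share of the body under RARα peaks in percent, with 1 grey point per protein-coding gene of 5 kb or more and the urea cycle genes in red. Across the genes, input coverage is higher where the RARα share is higher, and 4 genes above 30 are not drawn. Cps1 is at 11.8 reads per kb and Otc at 3.70, where Otc lies on the X chromosome, which has a lower mean input.

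The related genes were a list of 16 transporters and enzymes of the metabolism around the cycle. Of these, 15 had a filtered RARα peak, 13 an RXRα region and 12 a co-localized pair, compared to 52.2%, 39.8% and 23.5% of all genes. The 1 without a filtered peak was Arg2, the arginase of other tissues. Their median share of the body under RARα peaks was 18.5%, compared to 59.8% for the urea cycle genes and 1.84% for all genes. Cps1 counts towards the urea cycle values here, and its RARα cover was known when it was chosen, so the comparison is only a description. Of the 16 related genes, 3 reached 50%, compared to 4 of the 6 and 2.66% of all genes. These 3 were Slc38a3, a glutamine transporter, with 90.9%, Slc7a2, a transporter of arginine and ornithine, with 85.2%, and Glul, the glutamine synthetase of hepatocytes around the central vein, with 84.8%. Slc7a2 had the longest domain of the list with 13781 bp. Glul had the highest RXRα over input within 10 kb, 4.77 (3.86 to 5.94). Slc25a15, which exchanges ornithine and citrulline across the mitochondrial membrane, had 23.5% of its body under RARα peaks and an RXRα over input of 3.18 (2.72 to 3.73). Slc25a13, the carrier that supplies aspartate to Ass1, had 17.6% and 4.11 (3.54 to 4.79).

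Long RARα cover was also present on genes that mark hepatocytes. Of 10 such genes, 9 had at least 50% of their body under RARα peaks, with a median of 95.8% and Alb, which encodes albumin, at 95.1%, and the exception was Serpina1a with 9.66%. All 10 had an RXRα region within 10 kb of the TSS and 9 a co-localized pair, compared to 39.8% and 23.5% of all genes. Hnf4a had neither a co-localized pair nor a filtered RARα peak. Among 6 genes of other liver cells the highest share was 8.58%, for Stab2, and 0 of the 6 had an RXRα region within 10 kb of the TSS, although the body of Stab2 held 15. Among 10 genes of other tissues the highest share was 7.99%, for Syp, and 1 of the 10, Sftpc, had an RXRα region and a co-localized pair within 10 kb, with an RXRα over input of 3.65.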

How the data were processed

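Single-end ChIP-seq was measured in 3 libraries of mouse liver. The authors aligned the reads with Bowtie and called RARα peaks with MACS, and CASAVA 1.4 is named in the submitters' processing notes. The deposited RXRα and input signal is whole-number coverage in bins of 32 bp, and the deposited RARα list gives each peak a score, and its false discovery rate in percent, which was not used as a filter. File headers name mm9, while the methods give a later build for alignment, and 0 RARα peaks ran beyond an NCBI37 chromosome. RARα depth is unknown from the list, but the paper states a number of uniquely mapped RARα reads, larger than that for RXRα.

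RARα summits and RXRα region midpoints were counted for every TSS within 10 kb, also where another gene is nearer. RXRα bins within 200 bp were joined. The score, distance, 20-fold and 25% settings follow the study's methods. Reads are signal divided by 5, rounded, and are not independent molecules. How both files came to nearly the same total is not given in the sources used here. The members and lists were chosen with earlier results of these data known. Named were the 6 members, related genes with the longest domain or highest RXRα ratio, the genes next to Cps1 by domain length, and genes that share a domain with a member. The 3 related genes past 50%, both carriers and the marker genes were named after their values were seen. No p-values were computed. Region calling, joining and the repeat search were tested on simulated data. The simulated input was the same in every bin, so the use of the genome mean for bins without input was not tested. Python 3.11.15, numpy 2.4.6, pandas 2.3.3, scipy 1.17.1, pysam 0.24.0 and matplotlib 3.10.9 were used.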

Additional observations from a re-analysis of the deposited data

How the results depend on the processing

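No paired analysis was possible because each antibody had 1 library. Of 53 alternatives, 37 were classed as the same and 16 as moved, and a reversal was not among the classes. Some of the 37 could hardly have moved. A scale cancels in the quotient of inside over outside. The library totals were nearly equal, so ratios without scaling barely changed, with 2.6834 against 2.68322 for Cps1. The count of 37 is therefore not a measure of stability. A ratio counted as the same when it lay within the interval of the main value. A count could differ somewhat and still be classed as the same, such as 4 in place of 6 genes with an RXRα region. Co-localized RARα and RXRα was present in 3 of the 6 genes with RXRα at 30 times input, and in 3 with RARα scores above 50. The longest RARα domain on Cps1, 67270 bp, was 75381 bp with gaps of 200 bp bridged, 112801 bp with 1000 bp, 1861 bp without joining, and 19231 bp from peaks with scores above 20. It ranked 1, 1, 14 and 3 in the genome under these choices. Its length therefore depends on the joining, while the share of the Cps1 body under peaks was 93.2% with scores above 20. An RXRα region was present for 4 genes within 5 kb or 1 kb, without Cps1 and Otc. The shares of all protein-coding genes were computed at the main settings only. The counts at changed settings, of regions and of co-localized genes, thus cannot be compared to all genes. No RXRα region lay in the Cps1 body at 20 times input, but 36 did at 10 times. RXRα over input within 5 kb in place of 10 kb was 1.56 for Cps1, 2.74 for Ass1, 4.37 for Arg1 and 4.20 for Nags. Within 1 kb it was 3.12 for Cps1, 5.56 for Ass1, 4.96 for Arg1, 4.20 for Otc and 6.35 for Nags. The order of the genes by RXRα thus depends on the window, and the cause was not tested. Depth limits single bins, as a bin without input reads takes the genome mean.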
